A study of Bos taurus with 14 samples.

Results

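The genes described here encode nucleoporins, the proteins that build the nuclear pore, and the carriers that move cargo through it, in whole Holstein cattle conceptuses collected on Day 15 of gestation. Members were chosen by gene symbol from the platform annotation: symbols that begin with NUP and a digit, XPO and a digit or T, IPO and a digit, KPNA, KPNB, TNPO or RANBP, and RAN itself. The symbols used no measured value, but the family was selected on earlier results of the same length and grade comparisons, so the counts below are a description and support nothing beyond the single probe sets. The rule found 73 probe sets of 24016 and 44 genes of 9155 with a named probe set. Of 56 protein-coding cattle genes in RefSeq that match the symbols, the 12 without such a probe set, among them KPNB1, NUP98, XPO5 and IPO5, were not analysed here.

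Nuclear pores are large ring-shaped assemblies that span the nuclear envelope, with a scaffold of repeated subcomplexes and a channel lined by nucleoporins rich in phenylalanine-glycine repeats. Importins and transportins carry proteins in, exportins carry proteins and some RNAs out, and the small GTPase Ran, bound to GTP in the nucleus and to GDP in the cytoplasm, sets the direction of transport. Pores are built anew as cells grow and divide, and the conceptus of cattle elongates rapidly around this stage through growth of its trophectoderm, the outer epithelium that later forms the placenta.

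RNA of 14 conceptuses was hybridised, each to 1 Affymetrix bovine expression array, from 250 ng of total RNA. All came from superovulated Holstein donors inseminated with semen of 1 Holstein bull; embryos were collected on Day 6.5, given a morphological grade, moved to recipient heifers in groups of 2 to 6 of like grade, and flushed on Day 15. The groups were 5 long conceptuses from Grade 1 embryos (1 male, 4 female), 5 short conceptuses from Grade 1 embryos (2 male, 3 female), 1 male conceptus from a Grade 1 embryo with no length given, and 3 conceptuses from Grade 3 embryos (2 male, 1 female). Donor and recipient of each conceptus are not named; some may share a dam or a uterus, and a p-value here reflects only how far these conceptuses varied. One short conceptus, Grade 1 short replicate 1, is called long in 1 of its 2 length labels; it was used as short, which gives the 5 and 5 of the study's design.

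Values are log2 expression values after RMA normalization, and a difference of 1 is a factor of 2. The 73 member probe sets had means over the 14 arrays between 2.96 and 13.67 with a median of 8.46, against a median of 5.66 over all probe sets. Their median SD over the 14 arrays was 0.146, against 0.154 over all. The brightest was RAN (Bt.5052.1.S1_at), brighter than 99.6% of all probe sets, and the dimmest was KPNA7 (Bt.25374.1.A1_at), brighter than 5.79% of them. Arrays count no molecules, so the number of conceptuses limits the precision. A rank or level among probe sets describes signal on the array only, since probes differ in how brightly they bind, and is no measure of transcript number. In whole conceptuses, fewer cells of a type and less RNA per cell cannot be told apart.

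The first comparison asked how long conceptuses differed from short ones of the same embryo grade. In long conceptuses 6 of 73 member probe sets were lower and 1 was higher with limma at an adjusted p under 0.05. The 6 belonged to NUP214, TNPO2, RANBP1, IPO4 and, with 2 probe sets, NUP85, and the 1 to IPO8. The share lower was 8.22% of the members beside 3.87% of all probe sets, and the share higher was 1.37% beside 2.7%. These shares are not matched for level: 9.59% of members had a mean under 5, beside 41.7% of all probe sets. Testing only probe sets with a mean of at least 5 gave 11 of 66 members lower and 2 higher, beside 8.73% and 5.57% of all. Shares over all probe sets given below are not matched for level unless stated. All differences were small: they ran from -0.45 to 0.33 on the log2 scale, and 0 of 73 reached a fold of 1.5, which 760 of 24016 probe sets (3.16%) did.

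Small differences below 0 were common among the members. The difference, long minus short, was below 0 in 60 of 73 probe sets (82.2%), beside 55.7% of all probe sets. Taken by the brightest probe set of each gene, it was below 0 in 39 of 44 genes, beside 5387 of all 9155. Its median was -0.154 for the member probe sets and -0.0201 over all; among probe sets with a mean of at least 5, it was -0.179 for 66 members and -0.0319 over all. An unadjusted p under 0.05 was reached by 28 members (38.4%) with a lower level in long conceptuses, beside 12.9% of all probe sets, and by 3 members with a higher level, beside 9.06% of all. Values of long and short conceptuses did not overlap in 9 members that were lower (12.3%, beside 5.52% of all) and in 1 that was higher (1.37%, beside 2.9%). A single difference was known to within 0.178 on either side (median 95% half-width over the members), about as wide as the typical difference itself. The calls rested on few arrays: without Grade 1 short replicate 4, or without Grade 1 long replicate 5, 0 of 73 members passed, and the number of all 24016 probe sets that passed fell too, from 1577 to 460 without the first and to 510 without the second. Without each, 63 and 62 members were still below 0; a further quantile normalization of the arrays gave 3 members lower and 2 higher in place of 6 and 1.

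**Figure D1:**
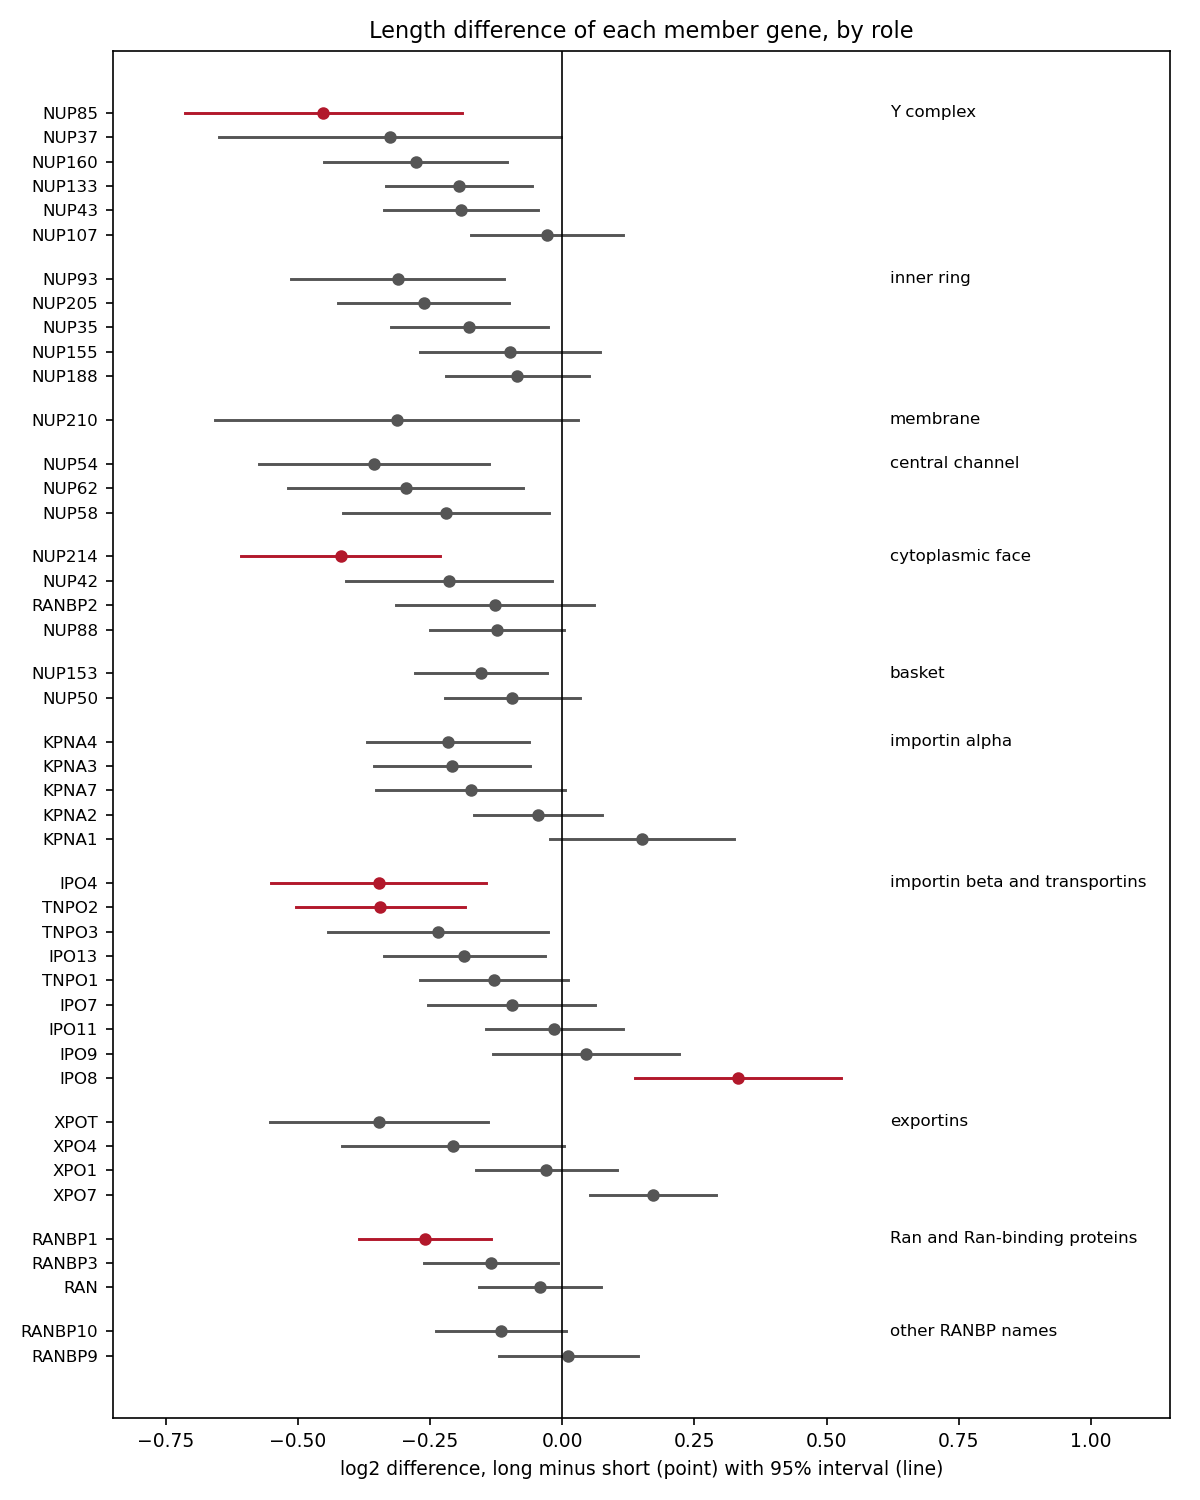
Difference between long and short conceptuses (log2, horizontal axis) for the brightest probe set of each of the 44 genes, with its 95% interval from limma, grouped by role from the pore scaffold at the top to the Ran-binding proteins at the bottom. Red marks an adjusted p under 0.05 over all probe sets; 39 of 44 points lie left of 0, and most intervals of the scaffold and channel genes lie apart from 0 without passing the adjusted threshold.

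In the pore scaffold, the Y complex forms the outer rings and is the subcomplex with which pore assembly begins. All 6 of its listed members that carry the NUP symbol were measured, all 6 were below 0 in long conceptuses, and their median difference was -0.236. SEH1L and SEC13, subunits of the complex outside the symbol rule, stood above 0, at 0.11 and 0.10 (adjusted p = 0.378 and 0.399, limma). The SEH1L probe set was dim, with a mean of 3.74 over the 14 arrays, while that of SEC13 was 11.54. Of the 6 NUP genes 1 passed, NUP85. For its probe set Bt.24544.1.S1_at the 5 long conceptuses read 8.44, 8.36, 8.68, 8.73 and 8.42, and the 5 short ones 9.07, 8.83, 8.63, 9.21 and 9.15. Only short replicate 3 lay within the long range, between the 2 highest long values and the rest. The means were 8.53 ± 0.17 (SD, n = 5) and 8.98 ± 0.24 (SD, n = 5), a difference of -0.45 (SE 0.12; 1.37-fold; limma adjusted p = 0.0467).

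A second NUP85 probe set, Bt.24544.2.S1_at, is a separate measurement annotated to the same gene and not another replicate. It read 7.62, 7.43, 7.63, 7.48 and 7.52 in long conceptuses and 7.92, 7.71, 7.67, 8.01 and 7.83 in short ones. Here the groups did not overlap, although the highest long and the lowest short value were close. The difference was -0.29 (SE 0.078; 1.22-fold; limma adjusted p = 0.0482). All 5 probe sets of NUP85 were below 0, from -0.452 to -0.0567, and the other 3 did not pass.

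The other Y complex genes did not pass. NUP160 differed by -0.28 (adjusted p = 0.0599, limma) and NUP43 by -0.19, while NUP133, by -0.20, had groups that did not overlap. NUP37 had 3 probe sets with differences between -0.325 and -0.296, all with a wide spread in both groups. NUP107, a core subunit of the same complex, differed by -0.03 (adjusted p = 0.852, limma), the smallest difference of the 6.

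The inner ring holds the channel nucleoporins in place. All 5 of its genes were measured and below 0 (median -0.175), and 0 passed. NUP205 read 9.64, 9.53, 9.80, 9.75 and 9.69 in long conceptuses and 9.88, 9.83, 9.90, 10.05 and 10.07 in short ones. The groups did not overlap, and the difference was -0.26 (SE 0.074; limma adjusted p = 0.0569). NUP93, which anchors the ring, differed by -0.31 (adjusted p = 0.0672, limma), NUP35 by -0.18, NUP155 by -0.10 and NUP188 by -0.08. The second probe set of NUP155 stood at 0.06, so its sign was not shared by both. NUP210, the membrane glycoprotein of the pore and the only measured gene of its role, differed by -0.31 with a 95% interval from -0.66 to 0.03.

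Central channel nucleoporins form the barrier of phenylalanine-glycine repeats through which carriers pass. Of 4 listed genes 3 were measured, all 3 were below 0 (median -0.296), and 0 passed. NUP54 (Bt.28131.1.S1_at) read 8.97, 9.16, 9.01, 9.23 and 9.12 in long conceptuses and 9.13, 9.60, 9.38, 9.52 and 9.65 in short ones. Short replicate 1 lay inside the long range and the other 4 above it. The difference of -0.36 (SE 0.099) missed the threshold (limma adjusted p = 0.0551) and passed without short replicate 1, the conceptus whose labels disagree (-0.44, limma adjusted p = 0.0166). That was the only 1 of 10 fits with a conceptus left out in which NUP54 passed. With the data processed or grouped in other ways, NUP54 passed in 6 alternatives and did not in 5. Without long replicate 1 its limma adjusted p was 0.124. NUP62 and NUP58, partners of NUP54 in the channel, differed by -0.30 and -0.22.

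NUP214, on the cytoplasmic face of the pore, is a docking site for export complexes and for messenger RNA leaving the nucleus; it had the smallest adjusted p of all members. Its probe set Bt.15866.1.S1_at read 7.89, 7.95, 8.03, 7.93 and 7.74 in long conceptuses and 8.19, 8.33, 8.15, 8.42 and 8.54 in short ones. Every short value lay above every long value. The means were 7.91 ± 0.11 (SD, n = 5) and 8.32 ± 0.16 (SD, n = 5), and the difference was -0.42 (SE 0.086; 95% interval -0.61 to -0.23; 1.34-fold; limma adjusted p = 0.0212). The second NUP214 probe set, Bt.15866.3.S1_a_at, differed by -0.01 (adjusted p = 0.941, limma), so the 2 probe sets of this gene disagree on the size.

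Of the other cytoplasmic-face genes, NUP42 differed by -0.21, RANBP2, the large SUMO ligase of the cytoplasmic filaments, by -0.13 and NUP88, the partner of NUP214, by -0.12; none of the 3 passed. The basket on the nuclear side was represented among the members by NUP153 and NUP50, with differences of -0.15 and -0.09, and neither passed. TPR and ZC3HC1, basket proteins outside the symbol rule, stood at 0.08 and -0.40 (adjusted p = 0.826 and 0.0196, limma).

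**Figure D2:**
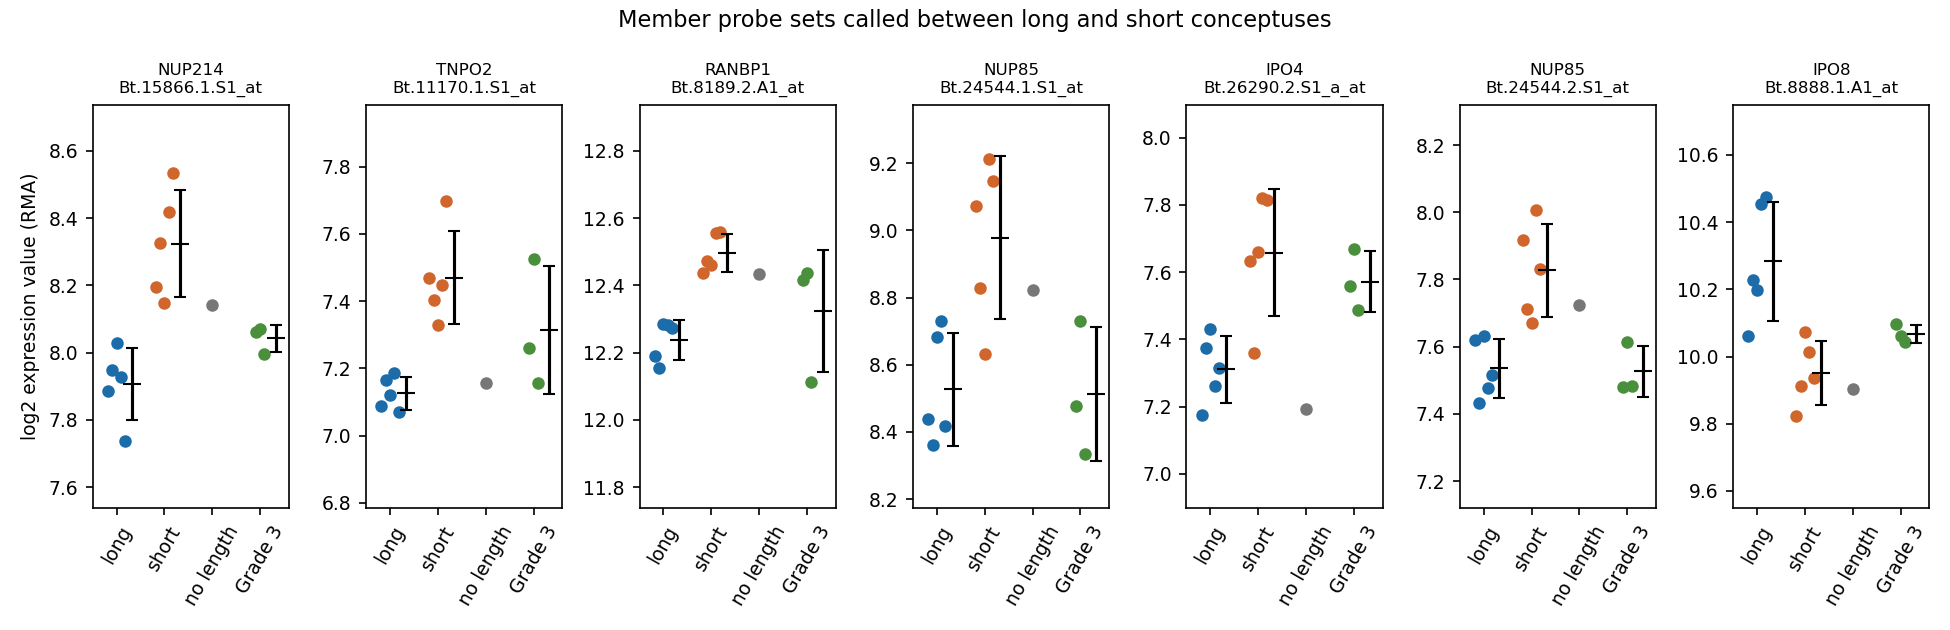
Log2 expression value (RMA) on each array for the 7 member probe sets with an adjusted p under 0.05 between long and short conceptuses; points are conceptuses (long, short, the 1 with no length, Grade 3) and bars are mean ± SD of each group of more than 1. Vertical axes have equal length but different ranges; NUP214, TNPO2, RANBP1 and the second NUP85 probe set have no overlap between long and short, and IPO8 is the only one that is higher in long conceptuses.

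Among the import receptors of the importin beta family, which bind cargo directly or through an adaptor, 9 of 12 listed genes were measured. Of these 7 were below 0 (median -0.13), 2 fell, TNPO2 and IPO4, and 1 rose, IPO8. TNPO2, which imports RNA-binding proteins, read 7.09, 7.16, 7.12, 7.19 and 7.07 in long conceptuses and 7.47, 7.40, 7.33, 7.45 and 7.70 in short ones. The groups did not overlap, and the long values were tightly placed. The means of Bt.11170.1.S1_at were 7.13 ± 0.05 (SD, n = 5) and 7.47 ± 0.14 (SD, n = 5), a difference of -0.34 (SE 0.073; 1.27-fold; limma adjusted p = 0.023). A dimmer TNPO2 probe set differed by -0.12 and did not pass.

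IPO4, a carrier of histones and ribosomal proteins, read 7.17, 7.37, 7.43, 7.26 and 7.32 in long conceptuses and 7.63, 7.36, 7.66, 7.82 and 7.82 in short ones (Bt.26290.2.S1_a_at). Short replicate 2 lay among the long conceptuses and the other 4 above them. The difference was -0.35 (SE 0.093; 1.27-fold; limma adjusted p = 0.0479).

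IPO8, whose cargoes include Argonaute proteins, went the other way. Its probe set Bt.8888.1.A1_at read 10.06, 10.23, 10.20, 10.45 and 10.47 in long conceptuses and 9.82, 9.91, 10.07, 10.01 and 9.94 in short ones. The highest short value was just above the lowest long value. The means were 10.28 ± 0.18 (SD, n = 5) and 9.95 ± 0.10 (SD, n = 5), a difference of 0.33 (SE 0.089; 1.26-fold; limma adjusted p = 0.0484).

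A second IPO8 probe set, Bt.8888.2.S1_at, read 7.12, 7.32, 7.26, 7.66 and 7.61 in long conceptuses and 6.92, 7.17, 7.02, 7.18 and 7.01 in short ones. Long replicate 1 lay among the short values. The difference had the same size, 0.33 (SE 0.11), but did not pass (limma adjusted p = 0.0909).

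The other importins and transportins had small differences that did not pass: TNPO3, the carrier of serine-arginine-rich splicing factors, -0.23, IPO13 -0.19, TNPO1 -0.13, IPO7 -0.10, IPO11 -0.01 and IPO9 0.05. TNPO1 had 3 probe sets whose signs differed, from -0.13 to 0.10.

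Importin alphas are the adaptors that read classical nuclear localisation signals. Of 7 listed genes 5 were measured, 4 were below 0 (median -0.173), and 0 passed. KPNA3 and KPNA4, closely related to each other, differed by -0.21 and -0.22 (adjusted p = 0.0905 and 0.0902, limma), and in the brightest probe set of each the long and short values did not overlap. KPNA2, known for high levels in dividing cells, differed by -0.05 (adjusted p = 0.691, limma). KPNA1 was above 0, at 0.15 (adjusted p = 0.298, limma). KPNA7, known from oocytes and cleavage embryos, read between 2.79 and 2.92 in long and between 2.88 and 3.31 in short conceptuses, a difference of -0.17 (limma adjusted p = 0.243) at a level where the values hold no detection call.

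Among the exportins 4 of 7 listed genes were measured, 3 were below 0 (median -0.118), and 0 passed. XPOT, the exporter of transfer RNA, read 10.51, 10.67, 10.82, 10.74 and 10.70 in long conceptuses and 10.79, 10.95, 10.99, 11.18 and 11.25 in short ones (Bt.28989.2.S1_at). Short replicate 1 lay just below the highest long value and the rest above it. Its difference of -0.35 (SE 0.094) missed the threshold (limma adjusted p = 0.0511) and passed without short replicate 1 (-0.41, limma adjusted p = 0.0251). That was the only 1 of 10 fits with a conceptus left out in which XPOT passed. With the data processed or grouped in other ways, XPOT passed in 7 alternatives and did not in 4. Without short replicate 4 its limma adjusted p was 0.119.

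XPO7 ran in the direction of IPO8. It read 9.66, 9.64, 9.60, 9.70 and 9.72 in long conceptuses and 9.54, 9.51, 9.47, 9.53 and 9.41 in short ones, with no overlap. The difference of 0.17 (SE 0.054) did not pass (limma adjusted p = 0.0837), and its second probe set stood at 0.0014. XPO1, the general export receptor for proteins with leucine-rich signals, differed by -0.03 (adjusted p = 0.831, limma) and XPO4 by -0.21.

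RAN was nearly level on all arrays, from 13.60 to 13.68 in long and from 13.64 to 13.76 in short conceptuses. Its difference was -0.04 (SE 0.053, 95% interval -0.16 to 0.07, limma adjusted p = 0.71), an interval that allows only a small change in array signal. RANBP1, which binds Ran-GTP in the cytoplasm and aids its hydrolysis, fell in long conceptuses. Its probe set Bt.8189.2.A1_at read 12.19, 12.16, 12.29, 12.28 and 12.27 in long and 12.44, 12.47, 12.46, 12.56 and 12.56 in short conceptuses.

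Each RANBP1 value of the short group lay above each of the long group. The means were 12.24 ± 0.06 (SD, n = 5) and 12.50 ± 0.06 (SD, n = 5), a difference of -0.26 (SE 0.057; 1.20-fold; limma adjusted p = 0.0264). It was the smallest difference of the 7 that passed. Its other 2 probe sets, both much dimmer, differed by -0.04 and -0.02 and did not pass. RANBP3, a cofactor of XPO1, differed by -0.13 with no overlap in its brightest probe set. RANBP10 stood at -0.12 and RANBP9 at 0.01; this pair is better known as scaffold proteins of a ubiquitin ligase than for the Ran cycle.

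**Figure D3:**
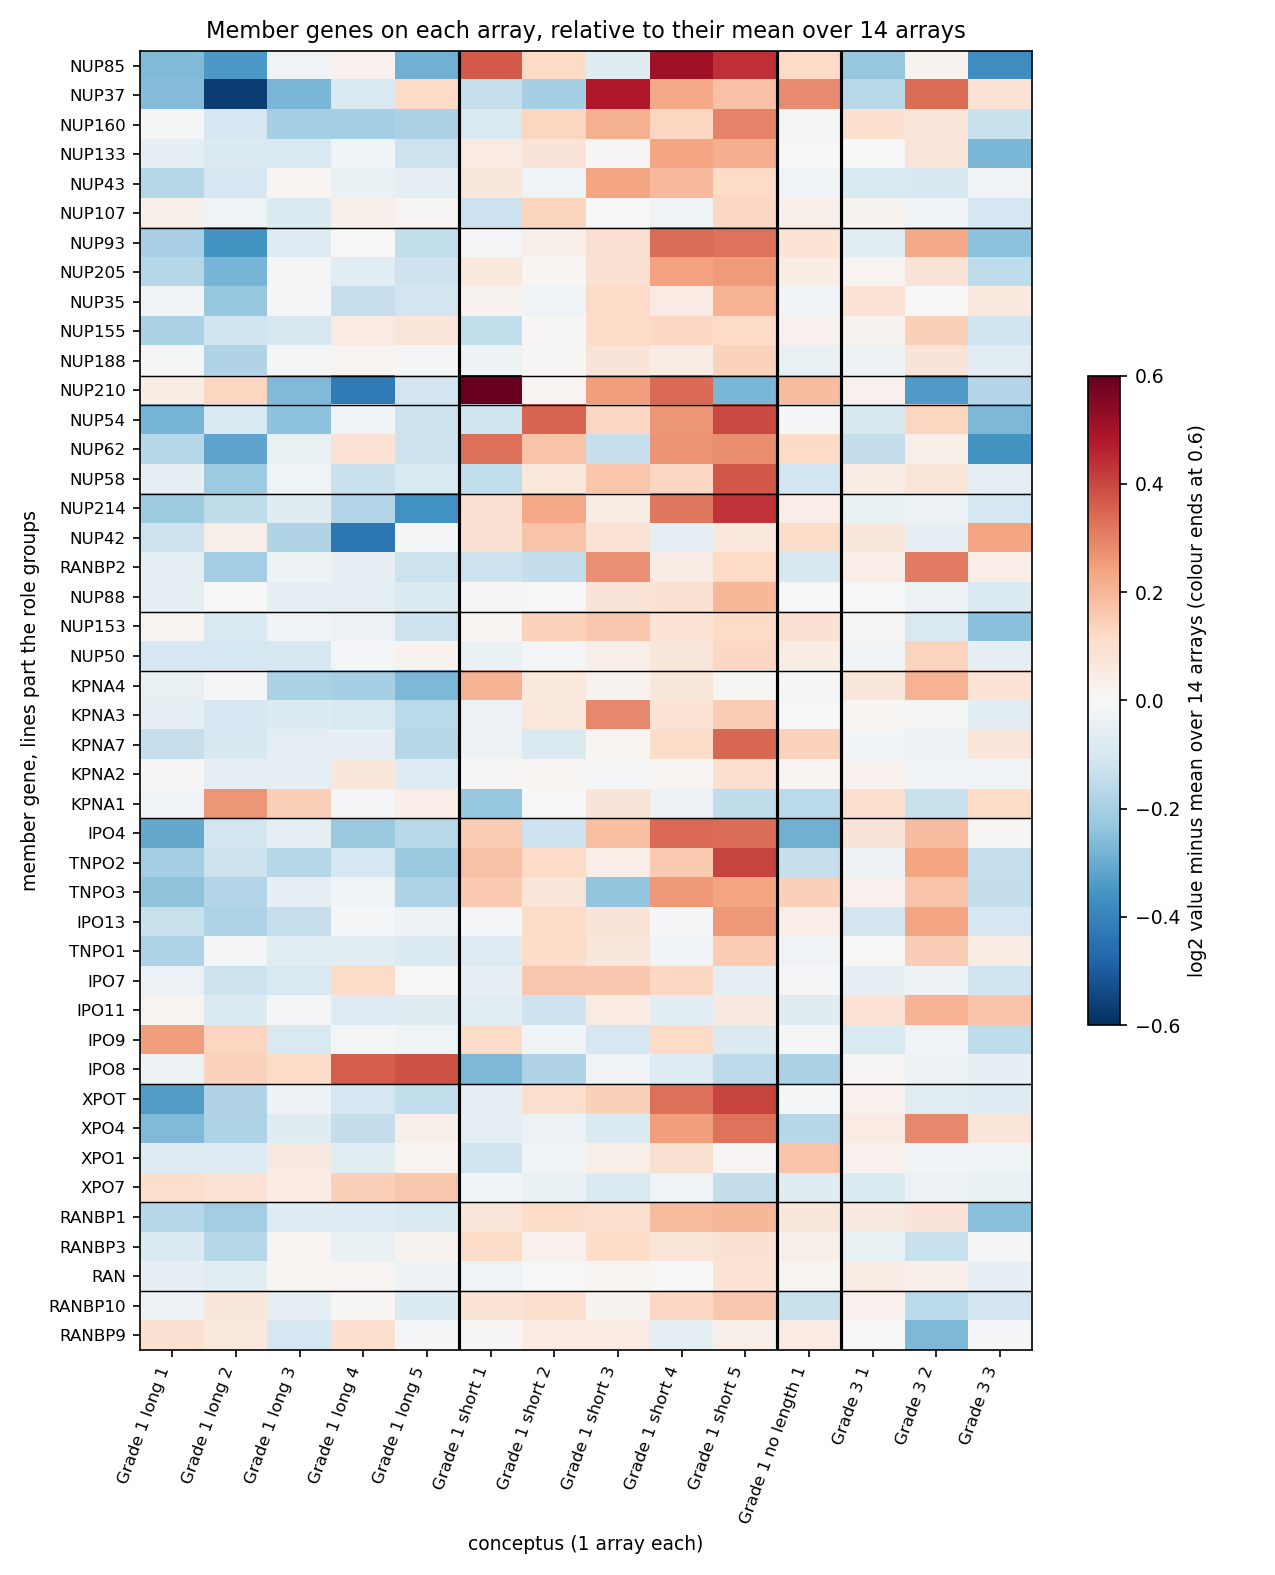
Log2 value minus the gene's mean over the 14 arrays (colour; the scale ends at 0.6, which Grade 1 short replicate 1 just passes for NUP210) for the brightest probe set of each of the 44 genes (rows, by role) in each conceptus (columns, by group). Long conceptuses are mostly blue and short ones mostly red, with IPO8, XPO7 and KPNA1 as rows of opposite colour, and short replicate 1 and Grade 3 replicate 3 as columns less like their group.

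Taking each array as a whole, the median deviation of the 73 member probe sets from their own means was between -0.0925 and -0.0481 in the 5 long conceptuses and between -0.0176 and 0.121 in the 5 short ones. The groups did not overlap, with short replicate 1 nearest to the long ones. In long conceptuses 50 to 55 members lay under their mean, and in short ones 16 to 39. Over all probe sets the median deviation was between -0.0269 and 0.0503 on the 14 arrays, so the members' shifts were larger than those of the arrays on most of them.

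**Figure D4:**
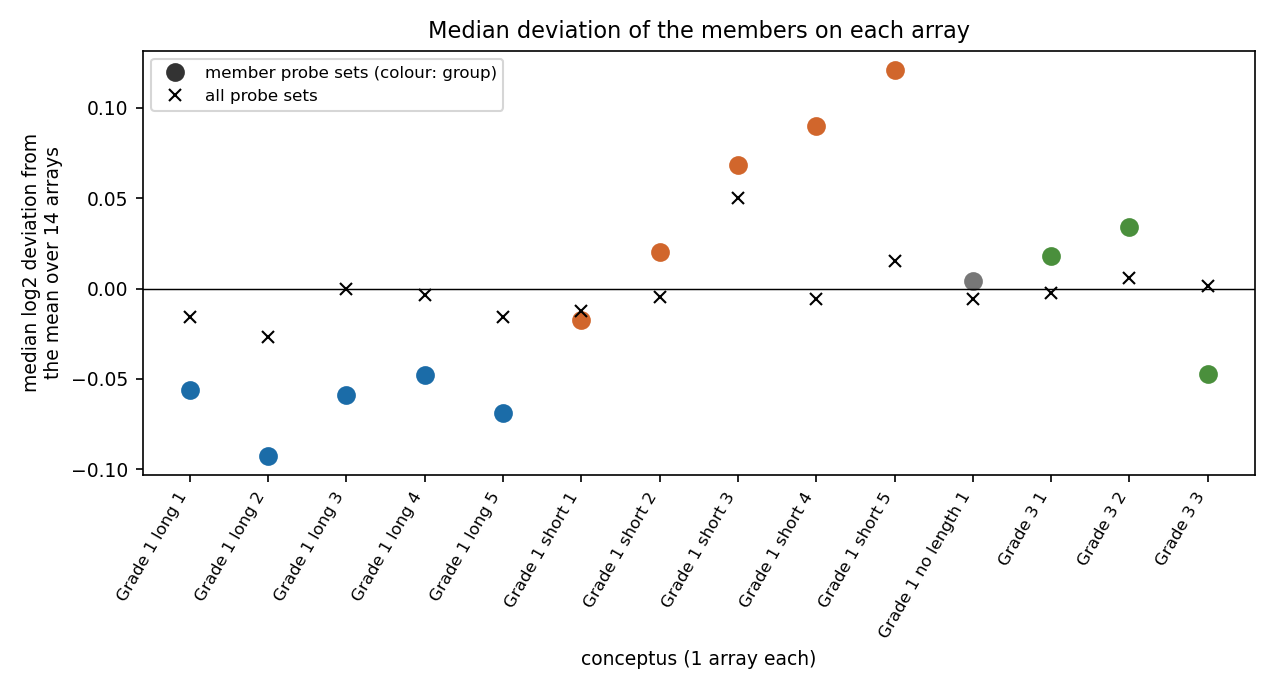
Median log2 deviation from the mean over 14 arrays, for the 73 member probe sets (circles, coloured by group) and for all 24016 probe sets (crosses), on each array. All 5 long conceptuses lie below 0, between -0.0925 and -0.0481, the short ones between -0.0176 and 0.121, and the 3 Grade 3 conceptuses between -0.0476 and 0.0339.

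The titles begin with 1 of 7 numbers that the labels do not explain, and 2 of these prefixes hold both lengths. Within the prefix of 2 long and 1 short conceptuses, 55 of 73 members were below 0 (75.3%, beside 54.1% of all probe sets), with a median of -0.109. Within that of 1 long and 2 short ones, 60 were (82.2%, beside 55.4%), with a median of -0.144. All 7 probe sets that passed kept their sign within both. NUP214, for example, differed by -0.41 and -0.26, RANBP1 by -0.30 and -0.22, IPO8 by 0.23 and 0.16, and IPO4 by -0.08 and -0.31. The same arrays entered the fit that gave the 7 calls, so a shared sign is no separate support for them. With the prefix as a fixed block in the fit, 0 of 73 members passed, beside 0.266% of all probe sets higher and 0.2% lower, and 58 members were below 0.

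Other genes of nuclear transport, the envelope and messenger RNA export, listed apart from the symbol rule, were read in the same fit. Of 51 listed, 37 were measured, each taken by its brightest probe set. In long conceptuses 29 were below 0, 7 fell and 0 rose, with a median of -0.146. Of all 9155 genes taken the same way, 5387 were below 0, with a median of -0.0348. Over all probe sets 3.87% were lower and 2.7% higher at the threshold. In a fit of 1 probe set per gene, these shares were 8.77% and 4.4%. RCC1, the chromatin-bound exchange factor that loads Ran with GTP, fell by 0.50 (SE 0.11; limma adjusted p = 0.0252). Lamin B1 (LMNB1), of the nuclear lamina, fell by 0.43 (limma adjusted p = 0.00937), and ZC3HC1, a protein of the pore basket, fell by 0.40 (limma adjusted p = 0.0196). The other 4 that fell were THOC3 of the mRNA export complex THO (-0.32), SNUPN, the import adaptor of spliceosomal RNPs (-0.31), and 2 proteins of the pore-bound mRNA export complex TREX-2, CETN3 (-0.28) and ENY2 (-0.27). RANGAP1, the activator of Ran's GTPase, differed by -0.19, and CSE1L, which returns importin alpha to the cytoplasm, by -0.175; neither passed. LMNA, the A-type lamin, stood at 0.53 and did not pass either (adjusted p = 0.0674, limma).

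Of 8 listed markers of proliferating cells 5 were measured, and 2 of them fell in long conceptuses, MCM5 (-0.39, limma adjusted p = 0.0142) and CCNA2 (-0.29, limma adjusted p = 0.0484). CCNB1 (-0.23, limma adjusted p = 0.0506), PCNA (-0.16) and CDK1 (-0.05) did not pass, and the median of the 5 was -0.232. Their mean level over the list ran from 10.69 to 10.75 in long, from 10.85 to 11.03 in short and from 10.82 to 10.85 in Grade 3 conceptuses. Their part in the members' differences was not tested.

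Cell type markers were set beside the members too. Trophectoderm markers (6 of 10 measured) had list means from 10.01 to 10.14 in long and from 10.05 to 10.16 in short conceptuses, with IFNT2, the pregnancy signal of the trophectoderm, at 14.53 and 1 of 6, TFAP2A, higher in long ones. Hypoblast markers (6 of 8) ran from 7.084 to 7.114 and from 6.983 to 7.201, with 1 gene, APOA1, higher. Epiblast markers (3 of 4) ran from 5.564 to 5.991 and from 5.941 to 6.443, with DNMT3B lower in long conceptuses and all 3 below 0; their part was not tested. The list means of endometrial, blood and immune, and erythroid markers (5 of 5 measured each) overlapped between the groups. CD8A, of the immune list, was the 1 gene of these 15 that passed: it was lower in long conceptuses by a difference of -0.84 (limma adjusted p = 0.0322), the direction of most members and a larger size than any member's, and its part in their differences was not tested. Levels over the 14 arrays ran from 3.17 to 6.679 for the endometrial list (MUC1 the highest), from 3.05 to 6.455 for the blood and immune list (CD8A the highest, PTPRC the lowest) and from 3.32 to 5.073 for the erythroid list. The first principal component over all probe sets separated long (5.89 to 31.58) from short (-38.4 to -1.829) conceptuses, while hybridisation controls and the 3′ to 5′ differences of GAPDH and actin overlapped between them.

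The second comparison set the 3 conceptuses from Grade 3 embryos, a lower morphological grade at transfer, against all 11 from Grade 1 embryos, since no label identifies the 4 Grade 1 conceptuses that the design names. With limma 0 of 73 members passed, beside 0% of all probe sets. The member median was -0.00637 (all probe sets 0.00239) and turned above 0 after a further quantile normalization (0.0109), 35 were above and 38 below 0, and the differences ran from -0.318 to 0.201. At an unadjusted p under 0.05 there were 2 members higher and 0 lower, beside 2.52% and 2.54% of all probe sets. A member's difference was known to within 0.205 (median 95% half-width).

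IPO11, an importin for ubiquitin-conjugating enzymes, was the 1 member without overlap between the grades (1.37% of members, beside 0.291% of all probe sets higher without overlap). Its probe set Bt.13874.1.A1_at read 8.70, 8.82 and 8.78 in Grade 3 conceptuses, and between 8.49 and 8.67 in the 11 Grade 1 ones. The difference was 0.20 (SE 0.056) and did not pass with limma, and the second IPO11 probe set differed by 0.06.

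Grade 3 conceptuses were then set against long and short ones apart. These comparisons share samples with those above and with each other, so their values are given side by side only. Against long conceptuses 0 of 73 passed (0% of all probe sets; smallest member adjusted p = 0.368 with limma), 49 were above 0 (67.1%, beside 55.4% of all), and the median was 0.0745 (all 0.0163). Groups did not overlap in 10 members that were higher and 1 that was lower (beside 4.04% and 3.1% of all), and an unadjusted p under 0.05 was reached by 8 higher and 1 lower (beside 5% and 5.09%). The 10 were probe sets of IPO4, IPO11, KPNA4 (2), KPNA7, NUP35, NUP210, RANBP2, TNPO1 and XPO4, and the 1 was XPO7. Without Grade 3 replicate 2 the median was 0.0297.

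Against short conceptuses 0 of 73 passed (0% of all; smallest member adjusted p = 0.519 with limma), 50 were below 0 (68.5%, beside 51.9% of all), and the median was -0.0569 (all -0.00679). Groups did not overlap in 4 members that were lower, of NUP85, NUP153, NUP214 and RANBP3, and in 1 that was higher, of IPO11 (beside 3.82% and 2.25% of all). The median ran from -0.0925 without Grade 3 replicate 2 to -0.0315 without Grade 3 replicate 3. At an unadjusted p under 0.05 there were 9 lower and 2 higher, beside 5.19% and 3.36% of all probe sets.

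The probe sets that passed between long and short conceptuses took different places in Grade 3. NUP85 (Bt.24544.1.S1_at) read 8.48, 8.73 and 8.33 in Grade 3 conceptuses, a mean of 8.51 ± 0.20 (SD, n = 3), which differed by -0.01 from long and by -0.47 from short ones. NUP214 read 8.06, 8.07 and 7.997, below every short conceptus and, but for replicate 3, above every long one. IPO4 read 7.56, 7.67 and 7.49, above all 5 long conceptuses and within the short range.

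Grade 3 thus lay with the long conceptuses for NUP85, between the groups for NUP214 and with the short ones for IPO4. TNPO2 read 7.26, 7.53 and 7.16, spread from the long range into the short one, and RANBP1 read 12.42, 12.44 and 12.11. Replicates 1 and 2 of RANBP1 lay near the lowest short value, and replicate 3 lay below every long conceptus. IPO8 read 10.10, 10.06 and 10.04, close together at the border of both groups.

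The conceptus with no length given took no single side. It read 7.19 for IPO4 and 7.16 for TNPO2, within the long range, and 8.82 for NUP85 (Bt.24544.1.S1_at) and 9.90 for IPO8, within the short range. For NUP214 and RANBP1 it read 8.14 and 12.43, just below the lowest short value of each. Grade 3 replicate 3 had 50 of 73 members under their mean, as many as the long conceptus with the fewest, and Grade 3 replicates 1 and 2 had 28 and 32. None of these differences between Grade 3 and the Grade 1 groups passed.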

How the data were processed

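Log2 expression values of 24128 probe sets on 14 arrays were deposited by the authors; per the submitters' processing notes they were made with Affymetrix Expression Console and RMA (their versions and the arrays normalized together: not given in the sources used here). Control probe sets (112) were left out. Of the 24016 tested, 13292 had 1 gene symbol in the platform annotation, 86 several and 10638 none; all 44 members matched RefSeq with an unchanged symbol. Differences were fitted with limma 3.58.1 in R 4.3.3 (lmFit, eBayes, two-sided), with Benjamini-Hochberg adjustment over all 24016 probe sets and a threshold of 0.05; only the groups compared entered a fit. A gene with several probe sets is represented by the brightest. The code was tested on simulated data. Values of single long and short conceptuses are given for probe sets that passed and the 3 with the largest difference among the rest. The brightest and the dimmest are given as ranges of the long and short groups. Further genes were picked after their values were seen: NUP205 and XPO7, in long and short conceptuses, and IPO11, with single values in Grade 3 only. The members, lists and tests were chosen with earlier results of these data known. Alternatives varied scaling, filter, covariates, blocks, and left out each conceptus.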

Additional observations from a re-analysis of the deposited data

How the results depend on the processing

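The median difference of the members between long and short conceptuses stayed below 0 in every alternative run. It ran from -0.179 to -0.142 over the 73 or 66 probe sets and from -0.175 to -0.129 with each conceptus left out. With 1 probe set per gene it was -0.18. None of the single probe sets followed through the alternatives changed sign. They were those that passed, the 3 with the largest difference among the rest, the brightest, the dimmest, NUP205 and XPO7. The counts of members that passed moved much more. Against 1 higher and 6 lower, quantile normalization once more gave 2 and 3 (all probe sets 3.09% and 3.01%, against 2.7% and 3.87%). Centring arrays on their median gave 0 higher and 5 lower (all 2.49% and 3.95%). Calls over all probe sets grew where those of the members did: testing only probe sets with a mean of at least 5 gave 2 and 11 (all 5.57% and 8.73%), sex as a covariate 1 and 10 (all 4.01% and 6%), and 1 probe set per gene 2 and 10 genes (all 4.4% and 8.77%). Counting the conceptus whose labels disagree as long gave 0 higher and 3 lower, 0 of which were among the 7 (all 1.12% and 0.924%). Leaving out short replicates 1 and 5, which lie farthest out on the principal components (chosen after seeing the data), gave 0 and 0 (all 0.966% and 0.983%). With 1 conceptus left out, 0 to 1 members passed higher and 0 to 7 lower. In all, 7 members passed without short replicate 1 (3 shared with the main 7). The count was 4, 7, 0 and 2 without short replicates 2 to 5. It was 2, 1, 4, 3 and 0 without long replicates 1 to 5. Calls over all probe sets moved too, from 1577 in the main fit to 1697, 1234, 1185, 460 and 704 without short replicates 1 to 5. They were 655, 532, 1209, 914 and 510 without long replicates 1 to 5. NUP214 lost its call in 2 of these 10 fits, TNPO2 in 4, RANBP1 in 5, and NUP85 (both probe sets), IPO4 and IPO8 in 9 each; the cause was not tested.

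The labels give no shared replicate numbers, so the title prefix took the place of a replicate block. As a fixed block it gave 0 higher and 0 lower (all 0.266% and 0.2%). As a random block 6 members passed, 1 higher and 5 lower (all 2.8% and 4.08%), and 4 of the 6 were among the 7. Both NUP85 probe sets and IPO4 lost the call, and NUP54 and XPOT gained it.

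Between the grades 0 members passed in every alternative run. The member median turned above 0 with quantile normalization (0.0109) and with sex as a covariate (0.00878), and ran from -0.0289 to 0.0271 with 1 conceptus left out. Grade 3 minus long gave medians from 0.0297 to 0.0908 with 1 conceptus left out, and Grade 3 minus short from -0.0925 to -0.0315.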
